A study of Mus musculus with 4 samples.

Results

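Natural killer (NK) cells were read from CD45+ leukocytes of subcutaneous KPC tumors, a mouse pancreatic carcinoma model. A barcode was taken as an NK cell when at least 2 of the 5 genes Ncr1, Klrb1c, Klra8, Klre1 and Eomes had a unique molecular identifier (UMI) and when Cd3d, Cd3e, Cd3g and Csf1r were all at 0. It also had to hold 300 to 5000 genes and at most 6% mitochondrial UMIs. In all, 1418 of 51841 barcodes within those limits met the rule, comprising 263 in the untreated library, 245 after the STING agonist, 576 after the LTβR agonist and 334 after both agonists together (combination).

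The hosts were male C57BL/6NHsd mice of 8 to 10 weeks that all carried tumors of the same KPC cell line. They received either no agonist, the STING agonist ADU-S100 as 1 injection into the tumor, an agonistic anti-LTβR antibody as 4 doses into the peritoneum, or ADU-S100 and anti-LTβR on the same schedules. On day 14 the tumors were resected, and live CD45+ cells of 10 pooled tumors per group were sorted and sequenced as 1 library of 5′ single-cell RNA. Because each group is 1 library, no replicate check was run and no test between treatments could be made from these libraries, and every interval given below covers counting error only.

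NK cells are innate lymphocytes that kill stressed or transformed cells by releasing perforin and granzymes, without a rearranged antigen receptor. They read their targets through a balance of activating receptors such as NKG2D and inhibitory receptors of the Ly49 and NKG2A families, and in tumors they release interferon-γ and the chemokines CCL3, CCL4, CCL5 and XCL1, which attract T cells and dendritic cells. Type 1 innate lymphoid cells (ILC1) share many NK receptors but stay in tissues, need little or no Eomes and carry markers such as CD49a (Itga1), CXCR6 and the IL-7 receptor.

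The deposited libraries held 8730 to 16322 barcodes, of which 7776 to 15698 were within the limits. NK barcodes of the combination library were the shallowest, with a median of 1868 UMIs against 3555 in the untreated, 4450 in the STING agonist and 3354 in the LTβR agonist library. Summed over NK barcodes, the libraries held 1077086, 1235658, 2203003 and 751846 UMIs in the order untreated, STING agonist, LTβR agonist and combination, so that 3 UMIs, the 1-sided limit taken for a count of 0, stood at 2.79, 2.43, 1.36 and 3.99 CPM. The upper end of the 2-sided exact interval of a count of 0 was 3.42, 2.99, 1.67 and 4.91 CPM, as for Csf1r, a macrophage receptor gene that the rule kept at 0. CPM, the unit of all expression levels below, divides a gene's UMIs by the total of these NK barcodes and is not corrected for gene length. Between 34 and 83 barcode sequences were shared by any pair of libraries, 0.355% to 0.539% of the smaller one, and no barcode was an NK cell in both.

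The label was checked against genes that the rule did not use. Nkg7, a granule protein of cytotoxic lymphocytes, stood at 1537 CPM in the untreated, 1655 CPM in the STING agonist, 1675 CPM in the LTβR agonist and 2109 CPM in the combination NK barcodes. Tbx21, which encodes the transcription factor T-bet, was at 309, 295, 301 and 305 CPM, and the signalling adaptors Tyrobp and Fcer1g were at 1433 to 1621 CPM and 1241 to 1306 CPM. Genes with the highest ratio of NK barcodes to all other barcodes included Gzmc, Gzma, the Ly49D receptor gene Klra4 and Klrb1f of the NKR-P1 family, and also Car2, Adamts14, Clnk and Xcl1. Clnk, an adaptor of immunoreceptor signalling, was at 653 to 808 CPM in NK barcodes and at 12.8 to 25.7 CPM in the other barcodes.

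T cell receptor genes were well represented in NK barcodes, while most other markers of T, macrophage and B cells were low but not absent. The coreceptor genes Cd5, Cd6, Cd4 and Cd8a were at or near 0, and Trac, the T cell receptor α constant gene, had a UMI in 3.4%, 4.9%, 4.9% and 2.7% of NK barcodes in the order given above. A 16-gene T cell list nevertheless reached a sum of 535, 466, 701 and 588 CPM, or 77.9%, 247%, 130.4% and 161% of its level in all other barcodes, mainly through Trbc1 (338 to 469 CPM) and Trdc (58.3 to 114 CPM). A list of ILC2 and ILC3 genes stood at 75.2% to 139.8% of that level. Macrophage genes stood at 1.56% to 3.20% of their level in the other barcodes and immunoglobulin genes at 3.23% to 4.88%. Neutrophil genes were at 258, 805, 235 and 30.6 CPM in NK barcodes, or 24.2%, 7.31%, 10.4% and 1.49% of their level in the other barcodes. Their level was highest in the STING agonist library, which held 6511 neutrophil barcodes, and their percent in the untreated one. Their part in the results was not tested.

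The values that chose the members are a description only. Klrb1c, the NK1.1 antigen, had a UMI in 80.8% to 91.8% of NK barcodes and Klre1 in 68.6% to 85.1%, whereas Ncr1 (NKp46) ranged from 51.2% in the combination to 76.4% in the untreated library. Just inside the threshold, the 64, 53, 103 and 122 barcodes with exactly 2 markers had 844, 968, 1152 and 1732 CPM of Nkg7. Just outside it, the 89, 102, 161 and 194 barcodes with exactly 1 marker had 65.1, 43.3, 260 and 573 CPM. The members at the border thus carried more Nkg7 than the barcodes left out in each library. Of 449, 370, 957 and 470 barcodes with at least 2 markers, 149, 91, 296 and 86 were left out for a Cd3 UMI alone, 22, 20, 48 and 38 for Csf1r alone and 15, 14, 37 and 12 for both.

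**Figure D1:**
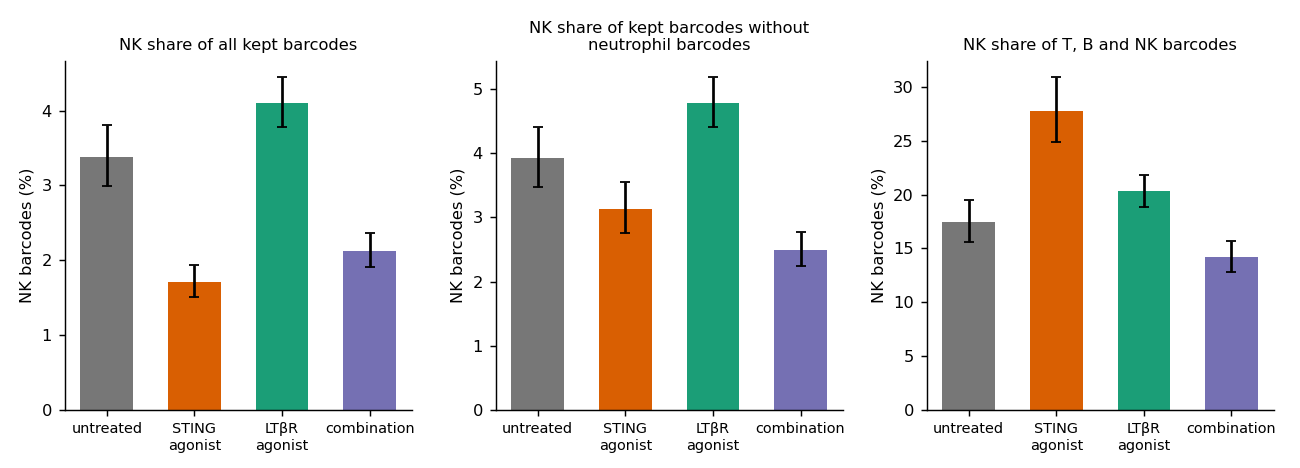
NK cells by library, as a percent of all barcodes within the limits, as a percent of those without neutrophil barcodes and as a percent of T, B and NK barcodes (vertical axes, %), with error bars for 95% exact binomial intervals (counting error only). The STING agonist library had the lowest share of all barcodes (1.71%) and the highest share of lymphocytes (27.8%).

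The abundance of NK cells depended on what they were counted against. NK cells made up 3.38% (2.99% to 3.81%, 95% Clopper-Pearson interval) of untreated barcodes, 1.71% (1.504% to 1.94%) after the STING agonist, 4.10% (3.78% to 4.44%) after the LTβR agonist and 2.13% (1.91% to 2.37%) in the combination. Relative to untreated tumors, these shares were 0.506 times as high with the STING agonist, 1.21 times with the LTβR agonist and 0.629 times in the combination. Neutrophils numbered 1069, 6511, 2007 and 2304 barcodes in the same order. Without neutrophils in the denominator, NK shares were 3.92%, 3.14%, 4.79% and 2.49%, and the STING agonist share was then above rather than below that of the combination.

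Among T, B and NK barcodes, NK cells were 17.5% (15.6% to 19.5%) in untreated tumors, 27.8% (24.9% to 30.9%) with the STING agonist, 20.3% (18.9% to 21.9%) with the LTβR agonist and 14.2% (12.8% to 15.7%) in the combination. The STING agonist interval did not overlap the others, and the combination interval overlapped only that of the untreated library. Counted per 100 T barcodes (at least 2 UMIs over the Cd3 and T cell receptor constant genes), there were 22.2, 41.6, 30.7 and 24.5 NK barcodes, and 19.1, 43.2, 28.1 and 21.6 when every barcode was thinned to 1000 UMIs. B lineage barcodes, which enter the lymphocyte denominator but not the ratio to T cells, numbered 56, 47, 384 and 649. Leaving out NK barcodes with 2 or more T cell receptor UMIs took the NK barcodes from 263 to 125, from 245 to 117, from 576 to 225 and from 334 to 224, a smaller part of the combination library than of the others, and gave 9.14%, 15.5%, 9.06% and 10.0% of lymphocytes, in which the STING agonist library was again highest but the combination was no longer below the untreated library. In the untreated library, 18.8% of NK barcodes with 2 rule markers (median 2501 UMIs) held 2 or more Trac, Trbc1 and Trbc2 UMIs. Of those with 5 markers (median 4672 UMIs), 55.7% did. In the combination these shares were 18.0% (1476 UMIs) and 50% (2967.5 UMIs). The cut thus leaves out deeper barcodes more often, and the combination NK barcodes were the shallowest. What depth contributes to the changes in this setting was not tested.

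Gene expression was compared on UMIs summed over the NK barcodes of a library. A gene was counted as higher or lower where its CPM ratio passed 1.5-fold (0.58 on the log2 scale), among genes with at least 100 UMIs over both libraries. Against untreated NK cells, 181 of 4241 genes (4.27%) were higher and 134 (3.16%) lower with the STING agonist, 178 of 5419 (3.28%) higher and 86 (1.59%) lower with the LTβR agonist, and 141 of 3624 (3.89%) higher and 98 (2.7%) lower in the combination. These 3 comparisons share the untreated library and are therefore not independent. Against the STING agonist library, the combination had 132 of 3823 genes (3.45%) higher and 125 (3.27%) lower, and against the LTβR agonist library 108 of 5082 (2.13%) higher and 140 (2.75%) lower. The median log2 ratio of all genes lay within 0.04 of 0 in each comparison.

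Gzma, Prf1 and Gzmb of the cytotoxic machinery were above their untreated level in all 3 treated libraries. Gzma, the serine protease granzyme A, stood at 1434 CPM in untreated NK barcodes, 2109 CPM with the STING agonist, 2437 CPM with the LTβR agonist and 3288 CPM in the combination. Its log2 ratio to untreated was 0.56 (0.47 to 0.65), 0.77 (0.68 to 0.85) and 1.20 (1.11 to 1.29), and the combination was also above either agonist alone, by 0.64 (0.56 to 0.72) and 0.43 (0.36 to 0.50). On barcodes thinned to 1000 UMIs, 48.4%, 51.9%, 55.5% and 61.5% of NK cells had a Gzma UMI, against 2.6% to 6.0% of the T group. The combination and the untreated intervals of that share (55.5% to 67.2% and 42.1% to 54.8%) did not overlap.

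Prf1, which encodes the pore-forming perforin, was at 553 CPM in the untreated, 764 CPM in the STING agonist, 852 CPM in the LTβR agonist and 887 CPM in the combination library. The combination exceeded the untreated library by 0.68 (0.52 to 0.84) on the log2 scale, while its difference from the LTβR agonist was 0.06 (-0.07 to 0.19). On thinned barcodes, 34.6%, 40.7%, 42.5% and 46.3% of NK cells had a Prf1 UMI. The untreated (28.8% to 40.8%) and combination (40.4% to 52.3%) intervals of that share overlapped. Gzmb, the main apoptosis-inducing granzyme, was at 588, 938, 982 and 890 CPM, with the treated libraries above the untreated one. Of the untreated Gzmb UMIs, 39.7% lay in 3 barcodes. The thinned shares with a Gzmb UMI were 24.0%, 25.9%, 28.7% and 33.6%, with overlapping untreated (18.9% to 29.8%) and combination (28.1% to 39.4%) intervals. Without NK barcodes holding T cell receptor UMIs, the combination to untreated ratio of Gzmb was 1.33 rather than 0.60, and the combination exceeded the single agonists by 0.87 and 0.90. Fasl, the death ligand for Fas, was at 183, 164, 185 and 182 CPM, and each of its ratios had an interval that spanned 0. Serpinb9, an inhibitor that protects killer cells from their own granzyme B, was at 512, 889, 632 and 771 CPM.

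Gzmc, a granzyme of activated killer cells, had its lowest summed level in the combination. Gzmc stood at 1078, 1566, 1398 and 721 CPM, a log2 ratio of the combination to untreated of -0.58 (-0.73 to -0.43), to the STING agonist of -1.12 (-1.26 to -0.98) and to the LTβR agonist of -0.95 (-1.09 to -0.82). Its ratio to untreated did not hold in other settings, at -0.01 after thinning and -0.13 with equal weight per barcode, whereas the ratio to the STING agonist was -0.92 and -1.15. Without NK barcodes holding T cell receptor UMIs, the ratio to the LTβR agonist was 0.03. Few cells carried transcripts of this granzyme cluster. Of 1161, 1935, 3079 and 542 Gzmc UMIs, 186, 182, 294 and 166 lay in 1 barcode, and 28, 46, 77 and 30 NK barcodes had any. Gzmd had 102, 140, 289 and 8 UMIs in 4, 7, 18 and 2 barcodes, and Gzmf had 287 UMIs in the STING agonist library, 155 of them in 1 barcode, against 4 in the untreated, 25 in the LTβR agonist and 1 in the combination library. On thinned barcodes, 7.5%, 13.2%, 10.8% and 6.4% of NK cells had any transcript of Gzmc to Gzmg, and the intervals overlapped between the untreated (4.6% to 11.4%) and the combination library (3.8% to 9.9%).

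Over the cytotoxic granule and death ligand list, 4 of 20 measured genes were higher and 0 lower with the STING agonist, 4 of 20 higher and 1 lower with the LTβR agonist, and 4 of 18 higher and 2 lower in the combination, beside 4.27%, 3.28% and 3.89% of all genes higher and 3.16%, 1.59% and 2.7% lower. Gzmf is among those higher with the STING agonist and reached the minimum through that library alone, with 93% of its UMIs there in 3 barcodes. Gzmd, among those lower in the combination, had 99% of its untreated UMIs in 3 barcodes. The list medians were 0.36, 0.30 and 0.22 on the log2 scale.

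**Figure D2:**
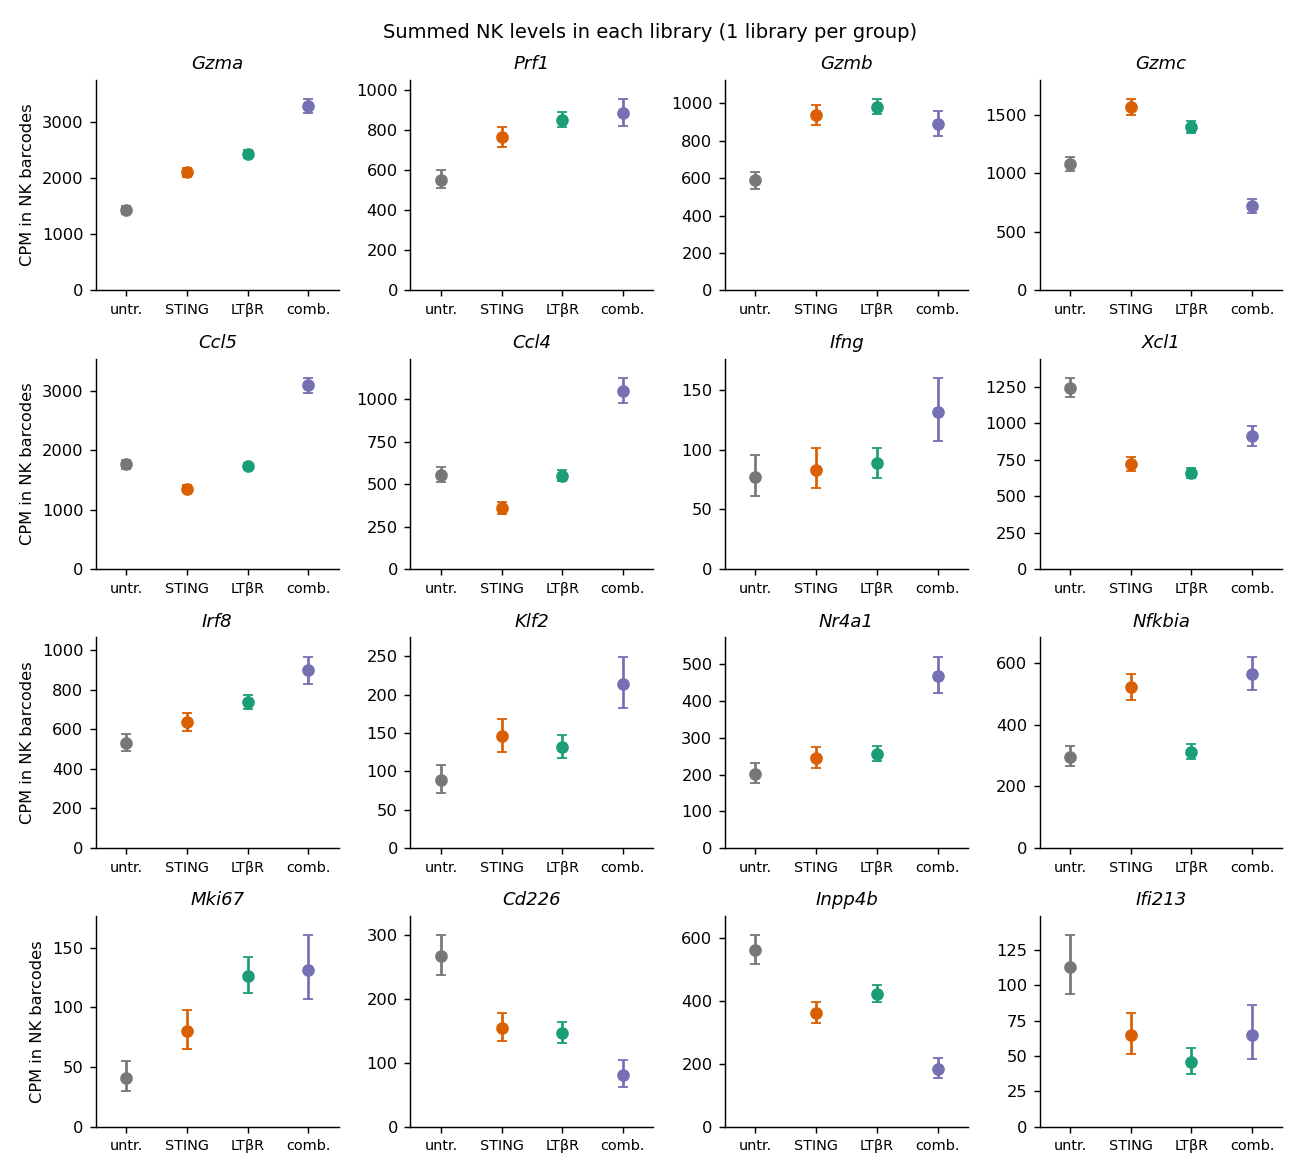
CPM of selected genes in NK barcodes of each library, with 95% exact Poisson intervals as error bars (counting error only). Gzma stood at 1434, 2109, 2437 and 3288 CPM and Cd226 at 267, 155, 148 and 81.1 CPM in the order untreated, STING agonist, LTβR agonist and combination.

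The chemokines Ccl5 and Ccl4, which attract T cells and myeloid cells, were highest in the combination. Ccl5 stood at 1764 CPM in the untreated, 1356 CPM in the STING agonist, 1740 CPM in the LTβR agonist and 3098 CPM in the combination library. Relative to untreated NK cells, the log2 ratios were -0.38 (-0.47 to -0.28), -0.02 (-0.10 to 0.06) and 0.81 (0.72 to 0.90). Ccl4 followed the same order at 555, 360, 551 and 1052 CPM, with the combination above the STING agonist by 1.55 (1.38 to 1.72) and above the LTβR agonist by 0.93 (0.80 to 1.06). Over all NK barcodes, the LTβR agonist and the untreated library did not differ beyond counting error for either gene, and the combination was above all others. Without NK barcodes holding T cell receptor UMIs, the LTβR agonist to untreated ratio was 0.77 for Ccl4 and 0.07 for Ccl5. On thinned barcodes, 20.1%, 13.99%, 19.0% and 32.2% of NK cells had a Ccl4 UMI, beside 14.03% to 23.8% of the T group, which also makes this chemokine. Outside NK cells the order was another: Ccl4 was at 767, 1905, 729.5 and 677 CPM in the other barcodes and at 1159, 1051, 566 and 870 CPM in the T group, and Ccl5 at 2862, 1992, 1698 and 2048 CPM in the T group.

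Ccl3, a chemokine closely related to Ccl4, was at 199, 115, 159 and 262 CPM. Over all NK barcodes Ccl5, Ccl4 and Ccl3 were lowest with the STING agonist, but without the NK barcodes holding T cell receptor UMIs the STING agonist to untreated ratio turned from -0.62 to 0.58 for Ccl4 and from -0.79 to 0.43 for Ccl3, and was -0.17 for Ccl5. The combination remained above untreated tumors in that setting, by 1.63, 1.01 and 1.00 for Ccl4, Ccl3 and Ccl5. Ifng, the macrophage-activating cytokine interferon-γ, had fewer UMIs and stood at 77.1, 83.4, 88.5 and 132 CPM, where the combination exceeded untreated tumors by 0.77 (0.34 to 1.21) on the log2 scale. The share of thinned NK barcodes with an Ifng UMI was 5.7% to 8.1% in the 4 libraries, with overlapping intervals. Xcl1, the ligand of XCR1 on cross-presenting dendritic cells, differed from the other chemokines and was highest in untreated tumors, at 1244, 721, 658 and 911 CPM. Without NK barcodes holding T cell receptor UMIs its combination to untreated ratio turned from -0.45 to 0.09. Tgfb1, which encodes an immunosuppressive cytokine, was at 305, 435, 465 and 471 CPM, and Ltb, the lymphotoxin-β subunit of the LTβR ligand, at 253, 185, 184 and 181 CPM.

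As a list, the NK cytokines and chemokines had 0 of 8 measured genes higher and 3 lower with the STING agonist, 2 of 9 higher and 1 lower with the LTβR agonist and 4 of 8 higher and 0 lower in the combination, beside 4.27%, 3.28% and 3.89% of all genes higher and 3.16%, 1.59% and 2.7% lower. Their medians were -0.42, -0.01 and 0.51 in NK barcodes and 0.10, -0.14 and -0.21 in the T group, and without NK barcodes holding T cell receptor UMIs the STING agonist median was 0.06. Against the STING agonist 4 of 8 were higher in the combination, and against the LTβR agonist 4 of 9, with 0 lower in both, beside 3.45% and 2.13% of all genes higher.

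**Figure D3:**
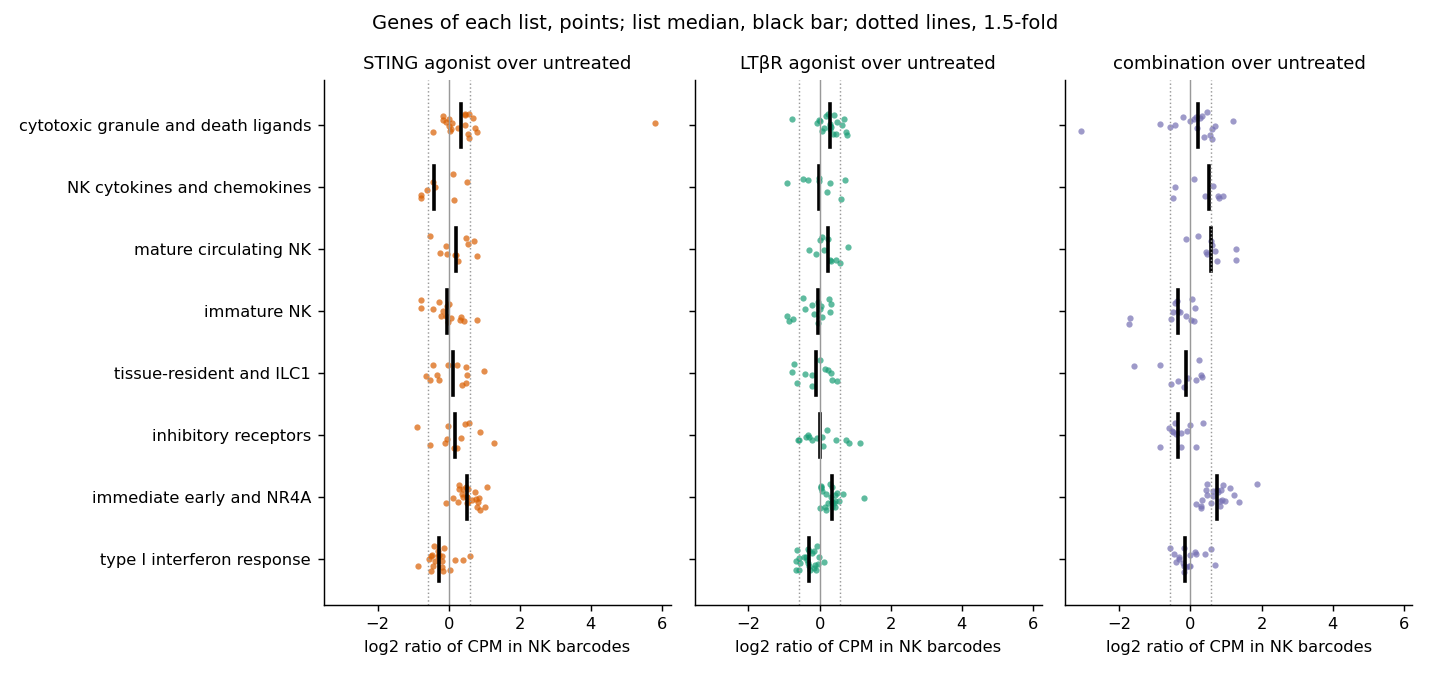
Log2 CPM ratio (horizontal axis) of each measured gene of 8 lists in NK barcodes, as points, with list medians as black bars and 1.5-fold as dotted lines, for the 3 comparisons with the untreated library. The immediate early list had a median of 0.76 in the combination, and the lone point at 5.80 is Gzmf with the STING agonist.

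Immediate early genes, which are transcribed within minutes of receptor or stress signals, were higher in the combination for most of those measured. Of 22 measured, 14 were higher and 0 lower than in untreated NK cells, with a median log2 ratio of 0.76, beside 3.89% of all genes higher. In the STING agonist library 9 of 23 were higher and in the LTβR agonist library 2 of 23, with 0 lower and medians of 0.52 and 0.34, beside 4.27% and 3.28% of all genes higher. In the T group the medians were 0.69, 0.23 and 0.19, and in the other barcodes 0.61, 0.23 and 0.29, so that the STING agonist value was similar across cells whereas the combination value was larger in NK barcodes. Whether the cell groups differ could not be tested.

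Nr4a1, an orphan nuclear receptor induced by antigen and activating receptors, stood at 202, 244, 256 and 470 CPM, so that the combination exceeded untreated NK cells by 1.21 (0.97 to 1.46) on the log2 scale. Jun, a component of the AP-1 transcription factor, was at 102, 170, 149 and 263 CPM and Junb, another, at 676, 898, 920 and 1202 CPM. Gadd45b, a stress-inducible activator of MAP kinase signalling, was at 31.6, 91.4, 68.5 and 148 CPM, and Csrnp1, which encodes a cysteine- and serine-rich nuclear protein, at 28.8, 68.0, 71.3 and 120 CPM. Each of these genes was highest in the combination and lowest in untreated tumors.

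Feedback inhibitors of NF-κB had another order. Nfkbia, which encodes IκBα, was at 296 CPM in the untreated, 520 CPM in the STING agonist, 312 CPM in the LTβR agonist and 564 CPM in the combination library. The difference between the combination and the STING agonist was 0.12 (-0.06 to 0.30) and that between the LTβR agonist and untreated tumors 0.08 (-0.12 to 0.27), both spanning 0. Tnfaip3, the ubiquitin-editing enzyme A20, was at 485, 825, 616 and 823 CPM, and Dusp1, a phosphatase of MAP kinases, at 166, 301, 214 and 309 CPM. Both libraries that had received ADU-S100 therefore lay above both that had not. Crem, a cAMP-responsive repressor, was highest with the STING agonist, at 122, 273, 173 and 166 CPM. Nfkbie, another IκB gene, stood at 27.8, 50.2, 31.8 and 66.5 CPM and Icam1, an adhesion molecule, at 102, 99.5, 71.3 and 134 CPM.

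The promoters of the immediate early genes are shown because 14 of the 22 measured were higher in the combination. Of those 14 genes, 13 had a promoter in RefSeq (GRCm38.p6), taken as the 250 bases before the start site. Both strands were searched for an NF-κB motif (GGGA, any base, TT, any base and CC), a cAMP response element (CRE, TGACGTCA) and an AP-1 motif (TGANTCA), which do not contain one another. Of the 13 promoters, 1 held the NF-κB motif, 2 the CRE and 1 the AP-1 motif, beside 0.940%, 1.62% and 6.87% of all 27025 promoters. The 4 promoters with a match lie on the minus strand at chr12:55492648-55492897 (Nfkbia), chr17:26508473-26508722 (Dusp1), chr1:134079156-134079405 (Btg2, an antiproliferative gene) and chr10:19015411-19015660 (Tnfaip3). They are printed 5′ to 3′ with the match in capitals, which marks the NF-κB motif in Nfkbia, the CRE in Dusp1 and Btg2 and the AP-1 motif in Tnfaip3. The match ends 20 bases before the start site in Nfkbia, 136 in Dusp1, 159 in Btg2 and 130 in Tnfaip3.
Nfkbia: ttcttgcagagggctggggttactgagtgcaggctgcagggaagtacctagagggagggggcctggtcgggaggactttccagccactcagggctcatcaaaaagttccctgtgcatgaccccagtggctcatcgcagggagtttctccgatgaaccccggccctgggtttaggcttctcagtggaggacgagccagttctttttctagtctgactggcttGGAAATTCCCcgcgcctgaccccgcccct
Dusp1: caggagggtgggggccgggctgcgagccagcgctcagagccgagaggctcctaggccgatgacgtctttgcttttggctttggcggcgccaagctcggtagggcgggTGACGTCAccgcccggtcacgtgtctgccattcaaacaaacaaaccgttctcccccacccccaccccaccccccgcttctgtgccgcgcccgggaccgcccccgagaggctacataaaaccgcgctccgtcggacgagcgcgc
Btg2: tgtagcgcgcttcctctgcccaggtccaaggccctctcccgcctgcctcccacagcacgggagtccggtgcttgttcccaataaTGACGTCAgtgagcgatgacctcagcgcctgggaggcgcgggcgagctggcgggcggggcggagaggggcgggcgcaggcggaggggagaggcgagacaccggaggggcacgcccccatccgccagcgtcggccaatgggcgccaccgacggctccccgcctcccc
Tnfaip3: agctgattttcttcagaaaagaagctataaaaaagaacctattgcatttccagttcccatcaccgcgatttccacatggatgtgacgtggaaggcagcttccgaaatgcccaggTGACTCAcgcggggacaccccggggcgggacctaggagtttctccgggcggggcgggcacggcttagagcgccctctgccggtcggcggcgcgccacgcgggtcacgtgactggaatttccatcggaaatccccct

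Of 10 measured genes of mature circulating NK cells, 5 were higher in the combination than in untreated tumors and 0 lower, with a median of 0.58, beside 3.89% of all genes higher and 2.7% lower. With the STING agonist 2 of 11 and with the LTβR agonist 1 of 11 were higher, and 0 lower, at medians of 0.20 and 0.24, beside 4.27% and 3.28% of all genes higher. Klf2, a transcription factor that controls egress and quiescence of lymphocytes, stood at 88.2, 146, 132 and 214 CPM, with the combination above untreated tumors by 1.28 (0.90 to 1.66). Irf8, a transcription factor of myeloid and NK cells, was at 530, 637, 737 and 896 CPM, and Ly6c2, which marks mature or activated lymphocytes, at 51.1, 72.0, 89.4 and 124 CPM. All 3 genes were lowest in untreated and highest in combination NK cells.

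Itgam, the CD11b integrin of late NK stages, was at 90.1, 62.3, 73.5 and 122 CPM, and the combination ratio to untreated was 0.44 (0.01 to 0.87). Thinned shares of NK barcodes with an Itgam UMI were 8.3%, 8.6%, 8.4% and 12.4%, with overlapping intervals. Those with a UMI of Cd27, a receptor of earlier stages, were 8.7%, 10.3%, 9.0% and 8.8%, and those with Klrg1, a terminal maturation marker, 0.82% to 1.77%. The Cd27 and Klrg1 intervals overlapped as well. By summed level, Itgam in the combination was above the STING agonist by 0.97 (0.52 to 1.43) and above the LTβR agonist by 0.74 (0.35 to 1.11), while with an Eomes UMI alone its ratio to untreated turned to -0.25.

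Several genes were lowest in the combination. Cd226, which encodes the activating receptor DNAM-1, stood at 267 CPM in the untreated, 155 CPM in the STING agonist, 148 CPM in the LTβR agonist and 81.1 CPM in the combination library. The combination ratio to untreated was -1.71 (-2.14 to -1.32) and its ratios to the single agonists were -0.93 (-1.38 to -0.51) and -0.85 (-1.28 to -0.46). Cd96, an inhibitory receptor for the same ligand CD155, was at 139, 129, 108 and 75.8 CPM. Inpp4b, a phosphoinositide phosphatase, was at 563, 362, 424 and 185 CPM, Il7r, the IL-7 receptor chain, at 86.3, 73.6, 51.3 and 25.3 CPM, and St6galnac3, a sialyltransferase, at 243, 218, 132 and 71.8 CPM. On thinned barcodes, Cd226 had a UMI in 15.7%, 13.6%, 11.5% and 4.9% of NK cells and Inpp4b in 21.7%, 18.9%, 17.8% and 8.1%, with the combination below the rest for both. Cxcr3, a receptor for interferon-induced chemokines, was at 58.5, 58.3, 44.0 and 29.3 CPM.

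Because Inpp4b and Il7r are among the ILC1 markers, their low level in the combination and the share of ILC1-like barcodes there are partly the same observation, and the share is a description. ILC1-like barcodes had Eomes at 0 and a UMI of at least 2 of Itga1, Cxcr6, Il7r, Tmem176b and Inpp4b. They were 39 of 263 untreated NK barcodes (14.8%, 10.8% to 19.7%), 43 of 245 with the STING agonist (17.6%, 13.0% to 22.9%), 64 of 576 with the LTβR agonist (11.1%, 8.66% to 13.97%) and 12 of 334 in the combination (3.59%, 1.87% to 6.19%). The combination interval lay below the other intervals, which overlapped one another. Thinned to 1000 UMIs, the shares were 10.6%, 10.3%, 6.6% and 1.4%, the last from 4 of 283 barcodes. In the T group, 39.9%, 34.8%, 36.2% and 35.5% of thinned barcodes met the same criterion, so the markers are not particular to ILC1. How many ILC1-like barcodes are T cells without a Cd3 UMI was not tested.

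The class is cut from marker counts and is a range rather than a type. Near its border, 32, 22, 44 and 41 barcodes without Eomes had exactly 1 marker and 23, 21, 38 and 9 had exactly 2, while 18, 30, 68 and 12 barcodes had at least 2 markers and an Eomes UMI. ILC1-like barcodes were deeper than the rest, with medians of 4416, 5047, 3960 and 3232 against 3420.5, 4298, 3295 and 1852.5 UMIs. Ncr1, a rule marker, had a UMI in 58.3% to 87.2% of them. Il23r of ILC3 and Il17rb and Il13 of ILC2 were at 0 in NK barcodes of 3 libraries and at 0.454 CPM in the LTβR agonist library. Rora, of the same ILC2 and ILC3 list, was not absent, at 461, 671, 250 and 228 CPM in ILC1-like barcodes. Trac had a UMI in 7.7%, 2.3%, 3.1% and 16.7% of ILC1-like barcodes, the last being 2 of 12.

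**Figure D4:**
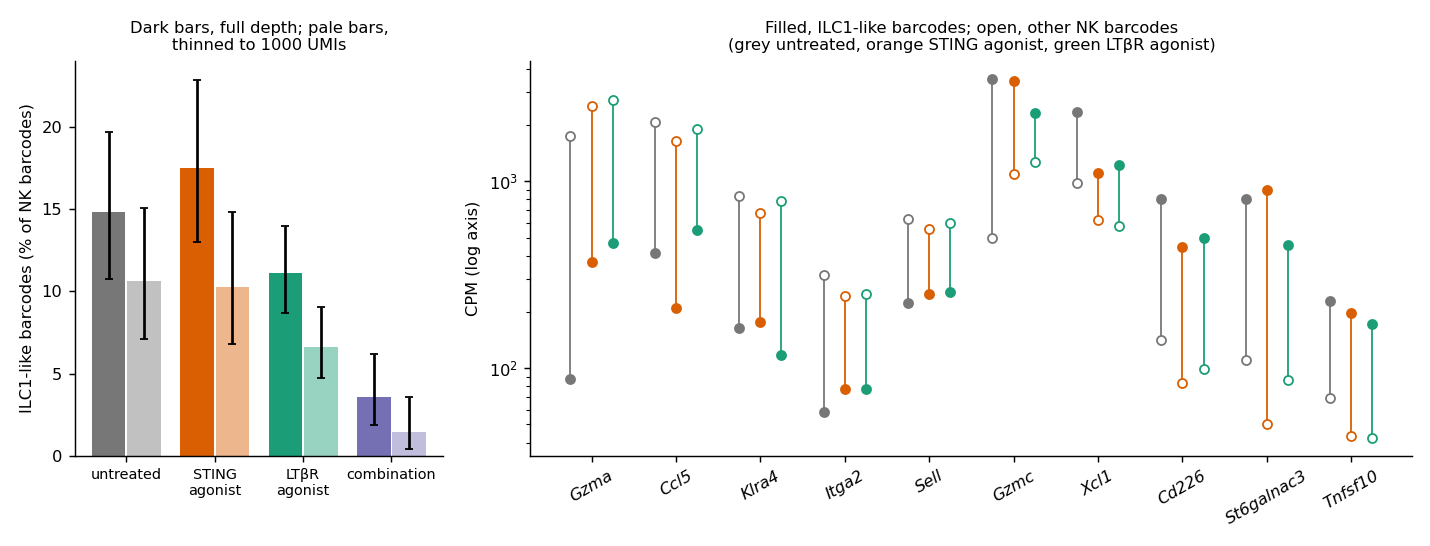
ILC1-like barcodes as a percent of NK barcodes in each library, at full depth and thinned to 1000 UMIs, with 95% exact binomial intervals (counting error only), and CPM on a log axis of selected genes in ILC1-like (filled) and other NK barcodes (open) of the 3 other libraries. The share was 3.59% in the combination against 11.1% to 17.6% elsewhere, and Gzma was lower and Gzmc higher in ILC1-like barcodes of each library shown.

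Several effector genes stood apart in ILC1-like barcodes in the 3 libraries with enough of them, while others did not keep 1 direction. Gzma was at 87.4 CPM in ILC1-like against 1752 CPM in the remaining barcodes of the untreated library, at 368 against 2538 CPM with the STING agonist and at 466 against 2715 CPM with the LTβR agonist. Ccl5 was likewise lower, at 413, 209 and 551 CPM against 2084, 1639 and 1908 CPM, as were the receptor gene Klra4 (118 to 176 against 680 to 830 CPM) and Itga2, the CD49b integrin of NK cells (58.2 to 77.8 against 244 to 317 CPM). Higher in ILC1-like barcodes were Gzmc at 3538, 3459 and 2309 CPM against 496, 1100 and 1269 CPM, and Xcl1 at 2354, 1113 and 1223 CPM against 982, 624 and 579 CPM. Cd226 was at 801, 446 and 496 CPM against 141, 83.7 and 98.4 CPM, and Tnfsf10, the death ligand TRAIL, at 228, 196 and 173 CPM against 68.9, 43.4 and 42.5 CPM. St6galnac3, Sema6d, Rora, Ikzf2, S100a4 and Cd200r1, an inhibitory receptor known from ILC1, were also higher. Prf1 was lower in each of these libraries, at 476, 483 and 536 CPM against 572, 833 and 897 CPM. Gzmb, by contrast, was at 1252 against 431 CPM in the untreated, 823 against 966 CPM in the STING agonist and 687 against 1024 CPM in the LTβR agonist library. Ccl3 was lower in the untreated and LTβR agonist libraries (53.4 against 233 and 51.4 against 175 CPM) but not with the STING agonist (119 against 114 CPM). These contrasts come from the same cells that were split and are a description.

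Leaving out the ILC1-like barcodes moved the combination to untreated ratios. Gzma went from 1.20 to 0.98, Ccl5 from 0.81 to 0.64, Ccl4 from 0.92 to 0.78 and Nr4a1 from 1.21 to 1.05. Cd226 went from -1.71 to -0.86, and its ratios to the single agonists from -0.93 to -0.11 (STING agonist) and from -0.85 to -0.34 (LTβR agonist). St6galnac3 went from -1.75 to -0.79. Inpp4b went from -1.60 to -1.08 and Il7r from -1.74 to -0.09, which are among the genes that define the class. Tmem176b, another of them, had 56 untreated and 12 combination UMIs, under the minimum, and its ratio turned from -1.66 to 3.10. Gzmc turned from -0.58 to 0.40. Among barcodes with an Eomes UMI alone, Gzma was at 0.74, Prf1 at 0.32, Ccl5 at 0.31, Ccl4 at 0.94, Gzmc at 0.36, Cd226 at -0.73 (-0.07 and -0.16 to the single agonists) and Klf2 at 1.23, while Zeb2, a factor of terminal maturation, went from 0.57 to -0.05.

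Several proliferation genes had higher levels in the treated libraries, from few cells. Mki67, the proliferation antigen Ki-67, stood at 40.9, 80.1, 127 and 132 CPM and Top2a, a topoisomerase of dividing cells, at 39.0, 67.2, 129 and 134 CPM. The replication-linked histone H1f5 was at 9.28, 40.5, 111 and 122 CPM, and Pcna, the replication clamp, at 111, 112, 123 and 116 CPM. Of a cell cycle list of 30 genes, 9 reached the minimum of 100 UMIs over both libraries with the STING agonist, 12 with the LTβR agonist and 7 in the combination. Genes such as Mki67 and Top2a reached it through their level in the treated library, and therefore no count or median over the list is given. H1f5, outside the list, likewise reached that minimum through the LTβR agonist and combination libraries. In the combination 40% of Mki67 UMIs lay in 1 barcode, and on thinned barcodes 5.1%, 5.3%, 5.9% and 7.8% of NK cells had UMIs of 3 or more cell cycle genes, with overlapping intervals (2.8% to 8.6% in the untreated and 4.9% to 11.5% in the combination library). The Mki67 ratio of the combination to untreated was 1.68 over all NK barcodes and 0.27 after thinning, where that of Top2a went from 1.77 to 1.94. With the STING agonist the Mki67 ratio was 0.96 over all NK barcodes, -0.07 after thinning and -1.06 without T cell receptor UMIs, where Top2a also turned, from 0.78 to -1.41.

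Interferon response genes stood mostly at or below their untreated level in tumors of day 14. Of the type I interferon list, 1 of 20 measured genes was higher and 1 lower with the STING agonist, 0 of 23 higher and 3 lower with the LTβR agonist and 1 of 18 higher and 0 lower in the combination, at medians of -0.28, -0.30 and -0.15, beside 4.27%, 3.28% and 3.89% of all genes higher and 3.16%, 1.59% and 2.7% lower. Ifi213, an interferon-inducible gene of the Ifi200 family, stood at 113, 64.7, 45.8 and 65.2 CPM, highest in untreated NK cells. Isg15 had a UMI in 2.8%, 6.2%, 2.7% and 6.4% of thinned NK barcodes, with overlapping intervals. Among interferon-γ and MHC genes, 0 of 20, 0 of 23 and 0 of 18 were higher and 0, 2 and 0 lower, beside the same shares of all genes.

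Klrk1, which encodes NKG2D, was at 860, 707, 774 and 783 CPM and Il2rb, the shared IL-2 and IL-15 receptor chain, at 1316, 1408, 1570 and 1632 CPM. Of the activating receptors and adaptors, 1 of 24 was higher and 3 lower with the STING agonist, 0 of 25 and 3 with the LTβR agonist, and 0 of 21 and 2 in the combination. Inhibitory receptors had 2 of 12, 3 of 14 and 0 of 12 genes higher and 1, 1 and 2 lower. Both lists are read beside 4.27%, 3.28% and 3.89% of all genes higher and 3.16%, 1.59% and 2.7% lower. Against the STING agonist, 5 of 12 inhibitory receptor genes were lower in the combination and 0 higher, beside 3.27% of all genes lower. Against the LTβR agonist 1 of 14 was lower and 0 higher, beside 2.75% of all genes lower. Ctla4, a checkpoint receptor, was at 54.8, 134, 93.1 and 54.5 CPM, above untreated with the STING agonist (log2 ratio 1.29, 0.86 to 1.75) but not in the combination (-0.00, -0.62 to 0.59). Without ILC1-like barcodes Ctla4 was at 37.9, 89.8, 78.7 and 56.1 CPM. The combination then lay above the untreated level, from 40 and 33 UMIs. Klrc1, the NKG2A chain, was at 344, 408, 227 and 243 CPM. Tox, a transcription factor of NK development, was at 615, 329, 488 and 428 CPM.

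Some genes were highest with the STING agonist alone. Abcb1b, a drug efflux pump, stood at 70.6, 220, 117 and 89.1 CPM, a log2 ratio to untreated of 1.63 (1.27 to 2.03) with the STING agonist and 0.34 (-0.16 to 0.83) in the combination. Vegfa, the angiogenic factor induced by hypoxia, was at 72.4, 201, 134 and 128 CPM, and Ndrg1, another hypoxia-induced gene, at 26.9, 74.5, 63.1 and 53.2 CPM. Slc2a1, the glucose transporter GLUT1, was at 43.6, 88.2, 55.8 and 65.2 CPM. Of the glycolysis, hypoxia and nutrient transport list, 5 of 18 measured genes were higher with the STING agonist, 3 of 20 with the LTβR agonist and 1 of 16 in the combination, with 0 lower, beside 4.27%, 3.28% and 3.89% of all genes higher. The list medians were 0.24, 0.28 and 0.08 in NK barcodes and -0.04, -0.08 and -0.15 in the T group. In the other barcodes they were 0.31, 0.16 and 0.01, so that the rise with the STING agonist was not particular to NK cells. Vegfc, the lymphangiogenic factor, was lower with the STING agonist and in the combination, at 176, 80.9, 122 and 77.1 CPM.

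Against the untreated library, the other gene lists had 0 to 3 members past 1.5-fold in either direction, beside 4.27%, 3.28% and 3.89% of all genes higher and 3.16%, 1.59% and 2.7% lower. In the order STING agonist, LTβR agonist and combination over untreated, NK identity genes outside the rule had 0, 2 and 3 of 16 higher and 1, 1 and 0 lower. Immature NK genes had 1 of 15, 0 of 15 and 0 of 13 higher and 2, 3 and 2 lower, and tissue-resident and ILC1 genes 1 of 12, 0 of 12 and 0 of 10 higher and 1, 3 and 2 lower. Cytokine receptors and their signalling genes had 3 of 22, 2 of 22 and 1 of 20 higher and 1, 3 and 1 lower, and NK transcription factors 2 of 20, 1 of 21 and 3 of 18 higher and 1, 1 and 0 lower. Genes of the STING, LTβR and NF-κB pathways had 2 of 17, 0 of 20 and 2 of 16 higher and 0 lower. Homing receptors and heat shock genes had 0 past 1.5-fold in either direction in all 3 comparisons. Against the STING agonist, 4 of 10 tissue-resident and ILC1 genes and 4 of 13 immature NK genes were lower in the combination. None of either list was higher, beside 3.27% of all genes lower, and the other lists of this paragraph had fewer. Against the LTβR agonist, 2 of 11 and 2 of 15 were lower, beside 2.75% of all genes.

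Summed levels of marker lists of other cells also varied between the libraries, with every list gene included. B and plasma cell genes summed to 251, 208, 609.6 and 1288 CPM of NK UMIs in the order untreated, STING agonist, LTβR agonist and combination, or 3.39% to 7.80% of their level in the other barcodes. Macrophage and monocyte genes summed to 386, 723, 493 and 754 CPM (2.38% to 5.11%), neutrophil genes to 602, 2517, 664 and 327 CPM (2.81% to 8.86%) and dendritic cell genes to 1278, 825, 995 and 1858 CPM (5.34% to 8.23%). B and plasma, macrophage and dendritic cell genes were thus highest in the combination and neutrophil genes with the STING agonist. Whether they took part in the differences above was not tested.

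Other genes chosen by size of ratio had fewer UMIs. Higher with the STING agonist than in untreated NK cells were Ctnnd2 (log2 ratio 2.08) and the ion exchanger Slc24a3 (1.35), and lower were Cxxc5 (-0.97), Kcnip3 (-0.96) and Asap1 (-0.87). With the LTβR agonist, the replication-linked histones H2ac4 (3.77) and H2ac8 (3.34), the replication factor Pclaf (1.65), the microtubule regulator Stmn1 (1.41) and Tuba1b (1.29) were higher, and Ulbp1 (-0.92), a ligand of NKG2D, and Fbxo33 (-0.91) lower. Bank1, a B cell adaptor, was higher by 2.81 with the LTβR agonist, and by 0.94 when the barcode with most of its UMIs was left out of each library. In the combination, the pyrophosphate transporter gene Ank (1.32) was higher, and Sema6d (-1.15), Angpt1 (-1.09) and Trim30d (-0.96) were lower. Against the STING agonist, the combination had more Nkain2 (1.48) and the survival factor Bcl2l1 (1.20) and less Impa2 (-1.64), Slc15a2 (-1.50) and Camk4 (-1.48). Against the LTβR agonist, it had more Txndc5 (1.04), Tagap (1.02) and Rap1gap2 (0.86) and less Slc2a3 (-1.13), a glucose transporter.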

How the data were processed

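CD45+ cells of 4 groups of KPC tumors were profiled, 1 library per group. The deposited matrices hold UMI counts per gene and barcode over 33696 features, which the authors made with Cell Ranger (version 8.0.1 in the file headers, 7.1.0 with build mm10 in the submitters' processing notes). The labels and the methods of the study name different generations of the 5′ kit. No coordinates were taken from the count files, since the build could not be settled. Doublets had not been marked. All 471 genes of 27 lists were found, and 0 columns belonged to no sample.

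NK barcodes were selected by the rule given at the head of the text, which uses measured values. The members, gene lists and comparisons were chosen with earlier results of these data known. UMIs were summed over the NK barcodes of a library and divided by their total (CPM), with 0.5 UMI added to each sum for ratios. A gene was measured in a comparison if it had at least 100 UMIs over both libraries. Poisson, Clopper-Pearson and conditional binomial intervals have a level of 95% and cover counting error only. Genes named by size were the 10 highest and 10 lowest ratios past 1.5-fold in each of the 5 comparisons, leaving out rule genes, immunoglobulin, T cell receptor, mitochondrial, ribosomal, X-inactivation, Y and predicted genes, markers of other cells, and genes under 0.5 times the level of the other barcodes. Others are members of fixed lists, and some genes are not reported here. Contrast genes of the ILC1-like barcodes were ranked by ratio after the values were seen. For shares of cells with a UMI, barcodes were thinned to 1000 UMIs, which left out 9, 2, 19 and 51 NK barcodes of the untreated, STING agonist, LTβR agonist and combination libraries.

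Scrublet's automatic threshold marked 0, 0, 1 and 0 barcodes and so had not worked, and its highest scores (305, 949, 857 and 1066 barcodes, among them 4, 18, 23 and 13 NK barcodes) were removed only as an alternative. Further alternatives were a rule of 3 markers, no limits, thinning, other totals and count minimums, equal weight per barcode, and leaving out NK barcodes with 2 or more T cell receptor UMIs. The alternatives without ILC1-like barcodes and with an Eomes UMI alone were chosen after seeing the data. Promoters came from RefSeq tables (GRCm38.p6), 1 per gene. Python 3.11.15, numpy 2.4.6, scipy 1.17.1, pandas 2.3.3, scanpy 1.11.5 and matplotlib 3.10.9 were used, and the ratio step was tested on simulated data.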

Additional observations from a re-analysis of the deposited data

How the results depend on the processing

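Removing the highest Scrublet scores, or the limits on genes and mitochondrial UMIs, moved none of the share ratios beyond their intervals. Leaving neutrophils out of the denominator gave an NK share ratio of 0.799 for the STING agonist over untreated and reversed the combination over the STING agonist (0.795). With at least 3 markers, the combination's share of all barcodes was 0.528 of untreated, 1.01 of the STING agonist and 0.401 of the LTβR agonist, and its share of lymphocytes 0.689, 0.412 and 0.553. Thinned, the lymphocyte ratio of the combination to the STING agonist was 0.429. Without NK barcodes holding T cell receptor UMIs, the shares of all barcodes gave 0.997 for the LTβR agonist over untreated (reversed) and 0.888, 1.75 and 0.890 for the combination over untreated, the STING agonist and the LTβR agonist. The lymphocyte shares gave 0.991 (reversed), 1.09 (reversed), 0.644 and 1.105 (reversed) for the same comparisons. Counts of genes past 1.5-fold, higher and lower, in the order STING agonist, LTβR agonist and combination over untreated, then combination over the STING agonist and over the LTβR agonist, were 679 and 790, 784 and 599, 807 and 708, 892 and 695, and 716 and 776 with a minimum of 20 UMIs. They were 55 and 26, 39 and 20, 42 and 14, 29 and 28, and 27 and 22 with a minimum of 300, and 51 and 27, 51 and 52, 63 and 49, 45 and 59, and 41 and 53 after thinning, where fewer genes had enough UMIs to be measured. Without T cell receptor UMIs, 72 genes were lower with the STING agonist, 94 higher with the LTβR agonist, 77 higher in the combination than untreated and 203 lower than with the STING agonist. With equal weight per barcode, the lower counts were 170 for the LTβR agonist and 239, 253 and 224 for the combination over untreated, the STING agonist and the LTβR agonist. With 5 UMIs added, the combination over the LTβR agonist had 168 higher and 61 lower. With an Eomes UMI alone, the combination had 92 higher and 58 lower than untreated and 74 lower than the STING agonist. Centring on the median gene, other totals and leaving out ILC1-like barcodes kept all 10 counts within 1.5 times. The ratio of Bank1 in the combination over the LTβR agonist reversed to 0.12 without T cell receptor UMIs and to 0.21 without the barcode holding most of its UMIs, and that of St6galnac3 over the STING agonist to 0.77 with Eomes alone and 0.33 without ILC1-like barcodes. Of the 18 lists tried, which leave out the rule markers and the lists of other cells, 17 of 87 medians moved by 0.2 or more on the log2 scale without T cell receptor UMIs, 13 of 90 with Eomes alone and 12 of 85 after thinning. Some of these crossed 0: the NK cytokine and chemokine median for the STING agonist went from -0.42 to 0.06 without T cell receptor UMIs, and the tissue-resident and ILC1 median of the combination over untreated from -0.12 to 0.21 with Eomes alone, 0.19 after thinning and 0.10 with at least 3 markers. The cause of these changes was otherwise not tested. No paired analysis was possible because each group has 1 library and the labels give no replicate numbers. The combination NK barcodes are shallow, which limits shares of cells with a UMI. Depth also limits the setting without T cell receptor UMIs, where deeper barcodes are left out more often.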
